A study of Arabidopsis thaliana with 12 samples.

Results

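Seedlings of the Arabidopsis thaliana mutant picln-1 were compared with wild type (WT) by sequencing of polyadenylated RNA, with 4 libraries of each genotype, 8 of the 12 libraries of the series. The other 4 libraries are from the mutant prmt5-5 and are not used here. The titles of the WT libraries carry the name Col. All seedlings grew at 22 °C for 10 days with 12 h of light and 12 h of darkness a day, and 9 days of that light regime are given as the treatment. A single mutant line was sampled, and whatever else sets it apart from WT cannot be told apart from the effect of the picln-1 allele. The measurements are the authors' own lists of changed genes and of changed gene bins, taken whole: 279 genes out of 16473 tested, and 541 bins in 470 genes out of 112984 bins tested. Bins are the pieces into which annotated splice sites divide a gene, and the share of a bin is the fraction of reads, pooled over the libraries of a genotype, that keep the intron, or that contain the exon part. No values per library, standard errors or depths are given, so each fold change and share below stands as the authors' single value per comparison or genotype.

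pICln is a chaperone of small nuclear ribonucleoprotein (snRNP) assembly. In animals it holds Sm proteins in a ring intermediate and presents them to the methyltransferase PRMT5 before they are loaded onto the U small nuclear RNAs of the spliceosome. In plants the most common alternative splicing event is retention of an intron, and a retained intron in coding sequence usually adds a stop codon. The pICln transcript (AT5G62290, TAIR10 chr5:25019175-25021131, plus strand) was 11.2-fold lower in the mutant (log2 change -3.48 in the authors' deposited table). Of 26 matched genes of a list for the snRNP core and its assembly, 2 were listed, pICln and the U1 snRNP protein gene U1-70K, with a log2 change of -0.83 in the authors' deposited table. AT3G07590, a small nuclear ribonucleoprotein family gene that the symbols of that list did not match, was higher, with a log2 change of 0.71 in the authors' deposited table. Of 29 genes of SR and hnRNP-like splicing factors, 0 were listed for a change of expression, where 1.69% of all genes tested were listed, so that a list of this size would hold few or none at that share.

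The sequences below are the 5′ splice sites, which the U1 snRNP reads, of 8 called introns chosen by adjusted p. They are 4 of the rising introns and 4 of the falling introns with the smallest adjusted p in coding sequence, and each run gives 3 exon bases and 6 intron bases in capitals, followed by 11 further intron bases in lower case. Letters are from the RefSeq copy of TAIR10 (TAIR10.1), read 5′ to 3′ on the strand of the gene. The first 4 rose and the last 4 fell. How well the capitals match annotated introns, as a score in bits, ranged from 4.70 to 7.03 in the rising and from 5.51 to 9.67 in the falling introns, so the ranges overlap.
ORG1 intron 7 of 12, chr5:21690425-21690444, plus strand: AAAGTTAGTttagactttga
PnsL1 intron 7 of 7, chr2:16477462-16477481, plus strand: ACAGTAAGCacagattataa
ORG1 intron 3 of 12, chr5:21689629-21689648, plus strand: TAGGTCAGTttctacttcat
AT4G39970 intron 1 of 9, chr4:18537939-18537958, minus strand: CAGGTCACTtgcctgaagaa
U1-70K intron 6 of 8, chr3:18828332-18828351, minus strand: CGGGTAGGTtattctgagca
AT5G53850 intron 2 of 12, chr5:21864072-21864091, minus strand: AAGGTATGGttttgtcgctt
AT2G02570 intron 2 of 7, chr2:700230-700249, minus strand: GAGGTGATCaatccctattt
MPK17 intron 2 of 9, chr2:201588-201607, minus strand: CAGGTAAGGtttctttgttc

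In the authors' deposited table the retained share went from 1.41% in WT to 11.6% in picln-1 for ORG1 intron 7, which had the smallest adjusted p of all rising introns (7.5e-49). It went from 3.60% to 15.1% for intron 7 of PnsL1, a lumenal subunit of the chloroplast NDH complex, and from 7.76% to 23.2% for ORG1 intron 3, per the authors' deposited table. For AT4G39970, a haloacid dehalogenase-like hydrolase gene, it went from 1.24% to 6.55% in the authors' deposited table. All 4 were spliced out of most transcripts in both genotypes. The falling introns started higher in the authors' deposited table: U1-70K intron 6 went from 29.0% to 5.50% and the second intron of AT5G53850, another haloacid dehalogenase-like hydrolase gene, from 19.7% to 7.69%. The second introns of AT2G02570, a nucleic acid binding protein gene, and of MPK17, a MAP kinase gene, went from 25.5% to 11.3% and from 18.6% to 3.15% in the authors' deposited table.

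A pair of whole rising introns and a falling intron of like length are printed to show their build, with the first 6 and last 3 bases in capitals. The first is the intron with the largest rise of all called introns, the second is the rising intron with the smallest adjusted p, and the third is a falling coding intron chosen as the one with the smallest adjusted p among short ones.
Cpn60beta4 intron 9 of 12, chr1:9073121-9073196, minus strand: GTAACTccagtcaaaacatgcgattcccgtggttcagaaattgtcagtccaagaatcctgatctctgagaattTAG
ORG1 intron 7 of 12, chr5:21690428-21690511, plus strand: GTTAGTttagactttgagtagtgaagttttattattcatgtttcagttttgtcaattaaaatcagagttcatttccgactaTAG
MPK17 intron 2 of 9, chr2:201489-201604, minus strand: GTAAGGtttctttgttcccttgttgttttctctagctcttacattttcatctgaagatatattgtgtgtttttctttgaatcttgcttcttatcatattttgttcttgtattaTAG

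The expression comparison asks which transcripts differ in abundance between the mutant line and WT. The authors listed 115 genes as higher (0.698% of those tested) and 164 as lower (0.996%), together 1.69%. The changes were mostly small: the median listed rise was 0.74 and the median listed fall was -0.80 on the log2 scale, and 76 genes (31 higher, 45 lower) passed 1 in size, per the authors' deposited table. Of the listed loci 248 are protein-coding, 30 are noncoding RNA genes or pseudogenes, and 41 have a product described only as uncharacterized. Below, counts are given only for gene lists and for families formed from product names, each over all annotated members, and are read against the 278 of 37899 annotated nuclear loci that were listed (0.734%). That share covers loci whether or not they were tested, and of the genes tested 1.69% were listed. The members and lists were chosen with earlier results of these data known, so a high share in a list is not independent support. Other genes are named as examples chosen after their values had been seen.

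In a list of 34 salicylic acid and biotic defence genes 4 were listed (11.8%), and all 4 were lower: PCC1, ACD6, WRKY54 and WRKY70. ACD6, an ankyrin repeat regulator of salicylic acid signalling, fell by 1.34 in the authors' deposited table. WRKY54 and WRKY70, related transcription factors that act together in salicylic acid responses, fell by 1.22 and 0.88, per the authors' deposited table. Receptor-like kinases did not share a direction, with 4 of 353 listed (1.13%), 2 higher and 2 lower. The kinase gene WAK1, whose protein spans the cell wall and the membrane, fell by 1.83 and the receptor kinase-related gene EP1 by 0.92, while the receptor kinase gene CRK18 and the S-locus lectin kinase gene AT1G61400 rose by 0.59 and 0.62 in the authors' deposited table. Outside that family, the leucine-rich repeat kinase gene AT1G53440 rose by 0.70 and the lectin receptor-like kinase gene AT4G03230 fell by 1.03 in the authors' deposited table. Further kinase genes outside it were lower in the authors' deposited table: AT3G57770 (log2 change -1.95), the leucine-rich repeat kinase gene AT1G35710 (-1.22), AT2G23200 (-0.75) and CRCK1 (-0.72). A legume lectin family gene, AT5G03350, fell by 2.70 in the authors' deposited table. Other lower genes in the authors' deposited table were the TIR-NBS-LRR receptor gene TAO1 (log2 change -0.79), the receptor-like protein gene RLP31 (-0.79) and the ion channel gene CNGC11 (-0.66). The methyl esterase gene MES7, whose product can release salicylic acid from its methyl ester, fell by 0.67, per the authors' deposited table. The antimicrobial peptide genes THI2.2, a thionin, and PDF2.1, a defensin, rose by 1.18 and 0.71 in the authors' deposited table.

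In a list of 34 sulphur and glucosinolate genes 7 were listed (20.6%), 6 higher and 1 lower. SDI1, LSU2 and LSU3, which are induced when sulphur is short, rose by 1.26, 0.65 and 0.88, and SULTR4;2, which exports sulphate from the vacuole, rose by 0.63, per the authors' deposited table. Cysteine and methionine metabolism was represented in the authors' deposited table by DES1, a cysteine desulfhydrase gene (0.66), HMT3, a homocysteine methyltransferase gene (0.79), and the ChaC-like gene AT5G26220 (1.61). Genes that act on glucosinolates after tissue damage rose too: ESP, which directs breakdown to nitriles, by 1.63, ESM1, which modifies that outcome, by 1.68, the myrosinase-binding gene MBP1 by 1.05 and the nitrilase gene NIT2 by 0.75, per the authors' deposited table. TGG2, one of the myrosinases themselves, fell by 0.80 in the authors' deposited table. DES1, HMT3, AT5G26220, MBP1 and NIT2 are not on the list and were named after their values had been seen.

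Iron genes did not share a direction: of 27 in a list for uptake and storage 3 were listed (11.1%), 2 higher and 1 lower. Per the authors' deposited table, the regulators BHLH100 and BHLH101, which are induced under iron shortage, rose by 0.74 and 0.78. FRO6, a ferric reductase gene, likewise rose in the authors' deposited table, by 0.65. The root uptake transporter gene IRT1, which the same shortage induces, fell by 0.63, and FRO4, ZIP3 and MTP11, a reductase, a zinc transporter and a manganese transporter gene, fell by 1.13, 0.61 and 0.63, per the authors' deposited table. Of 25 nitrate and phosphate genes 1 was listed, SPX1. In phosphate handling the phosphate sensor gene SPX1 rose by 0.77, the plastid transporter gene PHT4;3 by 0.85 and the acid phosphatase gene PAP16 by 0.62 in the authors' deposited table.

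Families linked to detoxification and protein folding were listed in both directions. Of 131 UDP-glycosyltransferases 2 were listed (1.53%), UGT73C7, which rose by 0.88, and AT5G24750, which fell by 0.59 in the authors' deposited table. Of 196 heat shock and chaperone genes 3 were listed (1.53%): the small heat shock family gene AT5G51440 rose by 0.86, and the prefoldin subunit gene AT1G49245 was 2.02-fold lower and the DNAJ domain gene AT5G27240 fell by 0.68 (log2), per the authors' deposited table. The glutathione transferase gene GSTU25 rose by 0.92, and the cytochrome P450 gene CYP71B19 and the peroxidase genes AT2G34060 and AT2G41480 fell by 0.97, 1.15 and 0.95, per the authors' deposited table. NAC13, a transcription factor of mitochondrial retrograde signalling, rose by 0.68, and AT2G21640, an oxidative stress marker, by 1.0, per the authors' deposited table. The auxin glycosyltransferase gene UGT74E2, whose product name falls outside that family, rose by 1.12 in the authors' deposited table. Of 237 genes in a family formed from starch and sugar product names 4 were listed (1.69%), 3 higher and 1 lower. The highest was QQS, a gene that affects starch content, with a rise of 4.78 in the authors' deposited table. The other higher ones, AT5G62360 and AT3G47380, are named as invertase/pectin methylesterase inhibitors and also count as pectin enzymes, so they may not act on sugars. In carbon metabolism the glyoxylate cycle gene ICL fell by 1.67 in the authors' deposited table, and the starch debranching gene LDA and the sucrose synthesis gene SPP2 fell by 0.61 and 0.63, while the sugar exporter gene SWEET1 rose by 0.79.

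Among hormone and developmental genes some rose and others fell. Of 34 flowering genes 2 were listed (5.88%), FLC and SPL3. The floral repressor FLC fell by 3.74, and the flowering promoter SPL3 and the floral organ gene SEP4 rose by 0.58 and 0.69 in the authors' deposited table. In jasmonate metabolism the synthesis genes AOC1 and AOC2 rose by 0.81 and 0.71 and the storage protein genes VSP1 and VSP2 fell by 0.94 and 0.89, per the authors' deposited table. Each pair has similar sequences, so its reads may have been assigned to either copy. GA2, an early gibberellin synthesis gene, and PRE1, a small helix-loop-helix gene induced by gibberellin, fell by 0.62 and 0.60, and the dehydrin gene RAB18 by 1.05 in the authors' deposited table. The plasma membrane proton pump gene HA8 and the triterpene synthase gene LUP1 fell by 1.25 and 1.06, per the authors' deposited table. RAB18 was the only listed member of 33 genes for cold, drought and abscisic acid, and CDF1, a repressor of flowering under clock control, the only one of 27 clock genes (log2 change -0.87 in the authors' deposited table). No member was listed among 26 auxin response, 34 photosystem, 18 heat shock or 15 nonsense-mediated decay genes, and at 1.69% of genes tested or 0.734% of annotated loci lists of these sizes would hold under 1 listed gene each.

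Genes for RNA processing and transcription were listed in both directions, and those named here are examples. Lower ones beside U1-70K were the RNA-binding family gene AT3G09160 (log2 change -1.47), CPSF30 (-0.59) and the Pcf11-like gene AT2G36480 (-0.66), which act in cleavage and polyadenylation, and the mRNA export gene SAC3A (-0.60), in the authors' deposited table. Higher ones were AT1G31870, a splicing factor of the RES complex (0.68), the SWAP domain gene AT1G14640 (0.67), NRPE7, a subunit of RNA polymerase V (0.71), and the RNA polymerase subunit beta gene AT2G25605 (0.59), per the authors' deposited table. Among short noncoding RNA loci, the precursors TAS1B, TAS1C and MIR162a fell by 0.81, 0.71 and 0.77, and the snoRNA gene AT1G03935 fell by 1.53 in the authors' deposited table. The U3 snoRNA genes U3B and U3D, whose RNAs act in ribosomal RNA processing, rose by 1.35 and 1.28, per the authors' deposited table. U3B overlaps AT5G53905, a locus with values equal to its own, so their reads cannot be told apart. Polyadenylated RNA was sequenced, so how far these values follow the mature snoRNAs is unknown. The plot of listed members by list and family shows every list with a listed gene and every family with at least 2.

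**Figure D1:**
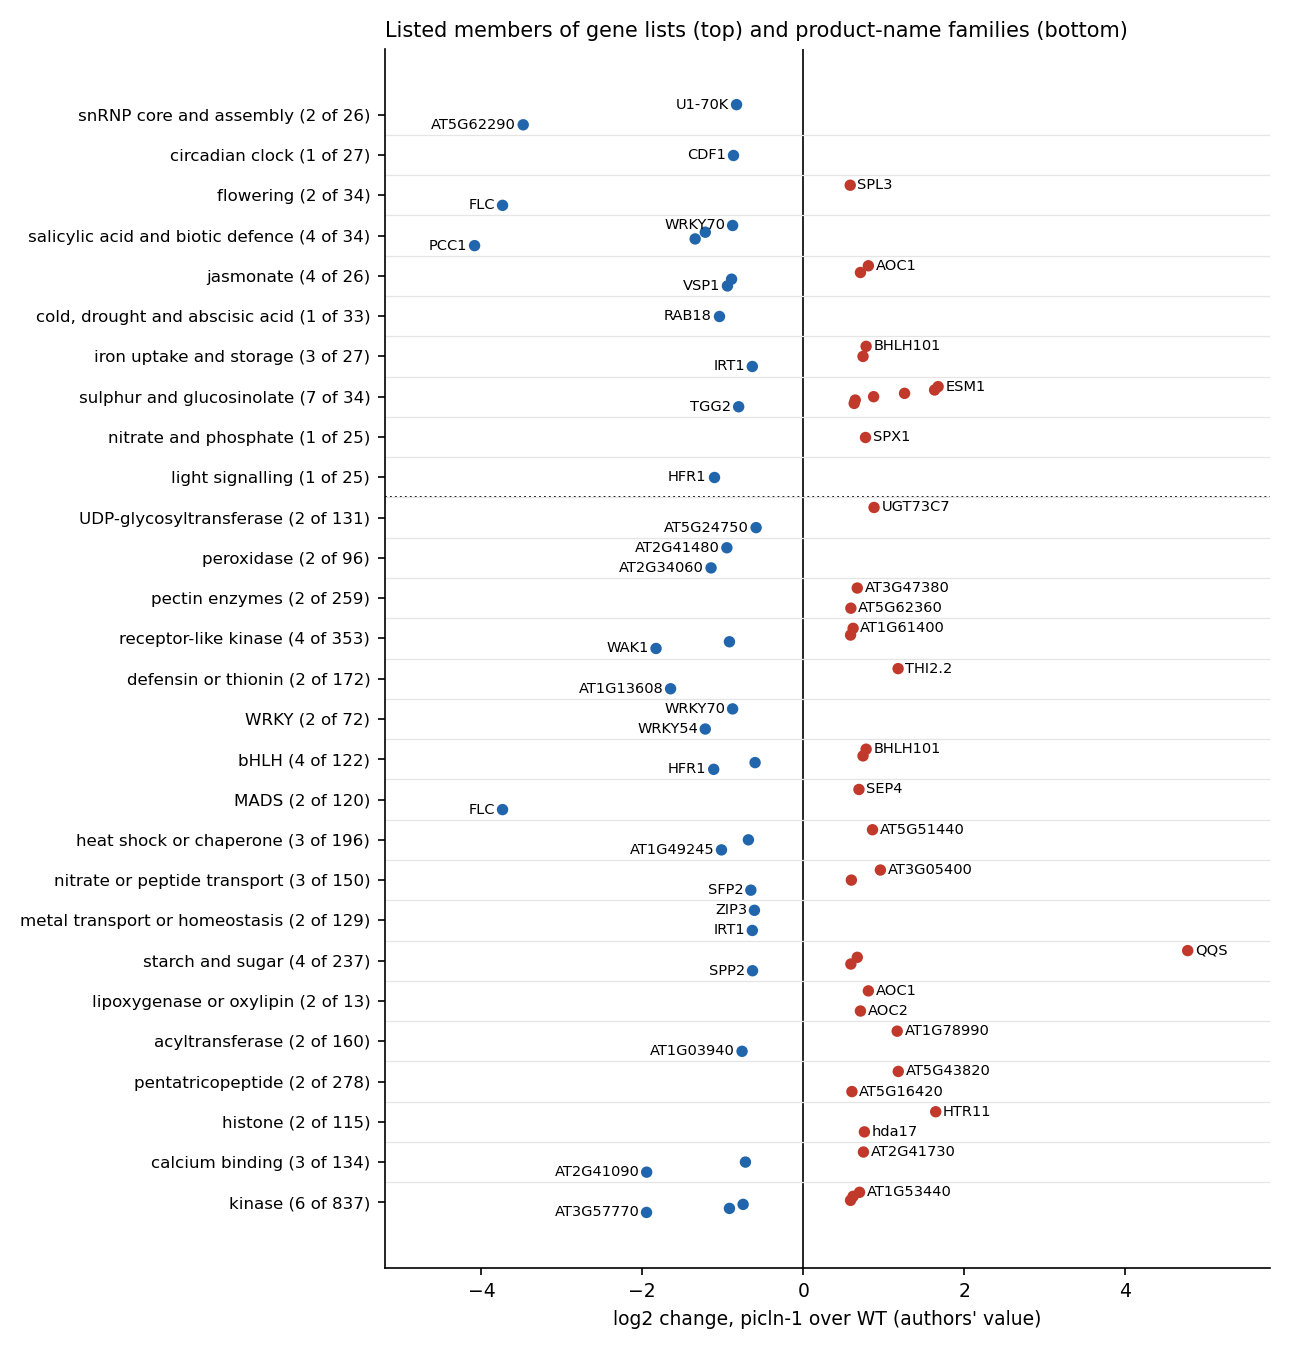
Each point is a gene listed in picln-1, placed by the authors' log2 change of picln-1 over WT (x axis) and by gene list or product-name family (y axis, with listed members of all members), red for higher and blue for lower, with the genes at the ends of each row named and genes of several groups drawn in each. All 4 listed salicylic acid and biotic defence genes lie left of 0 and 6 of 7 sulphur and glucosinolate genes right of it, whereas receptor-like kinases lie 2 on either side.

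Shared reads touch part of the expression list. Of the listed loci, 93 (33.3%) overlap another annotated gene, beside 28.5% of all annotated nuclear loci, and 14 overlap another listed locus. The paralogs AT3G28290 and AT3G28300 carry equal values (log2 change 1.63 in the authors' deposited table) and count as 1 measurement. Over the genome the share of annotated loci listed ran from 0.514% on chromosome 4 to 0.804% on chromosome 1. Near pICln itself it was 0.741%, 5 of 675 loci within 1 Mb. A window of that width thus held about the same share of listed genes as the genome. Runs of at least 3 listed genes with gaps of at most 100 kb numbered 18 and held 64 genes. How many runs would arise from the spacing of genes alone was not worked out, and some runs hold overlapping loci or copies with equal values. The run that holds pICln (log2 change -3.48) spans chr5:24934962-25071111 in the authors' deposited table. It also holds SLK2 (0.70), AT5G62360 (0.59) and CDF1 (-0.87), which are among the 5 listed loci within 1 Mb. Some runs were of 1 direction in the authors' deposited table, such as the lower genes PCC1, AT3G22235 and AT3G22240 on chromosome 3 (-4.09, -3.35 and -1.27), which encode small cysteine-rich membrane proteins. On chromosome 5, TAO1, AT5G44520, AT5G44580 and AT5G44582 were all lower, between -0.79 and -0.64 in the authors' deposited table.

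The bin comparison asks which splicing events differ. The 541 called bins were 0.479% of those tested, and the 470 genes that hold them were 1.95% of the 24095 annotated loci with an intron. The share of loci with an intron covers loci whether or not they were tested. The gene lists set beside it below were chosen with earlier results of these data known. Introns made up 523 of the bins, 478 of them with a higher share in picln-1 and 45 with a lower one. Because the authors required a share change above 0.05, an intron retained in less than that share in WT could be called only for a rise. Among called introns with a WT share above 10%, where both directions could pass, 105 rose and 41 fell. In the authors' deposited table the median rising intron went from 4.51% in WT to 15.5% in picln-1, and the median falling intron from 20.4% to 8.84%. Retention above 25% was reached by 121 called introns in picln-1 and by 37 in WT, and retention above 50% by 22 and 4.

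**Figure D2:**
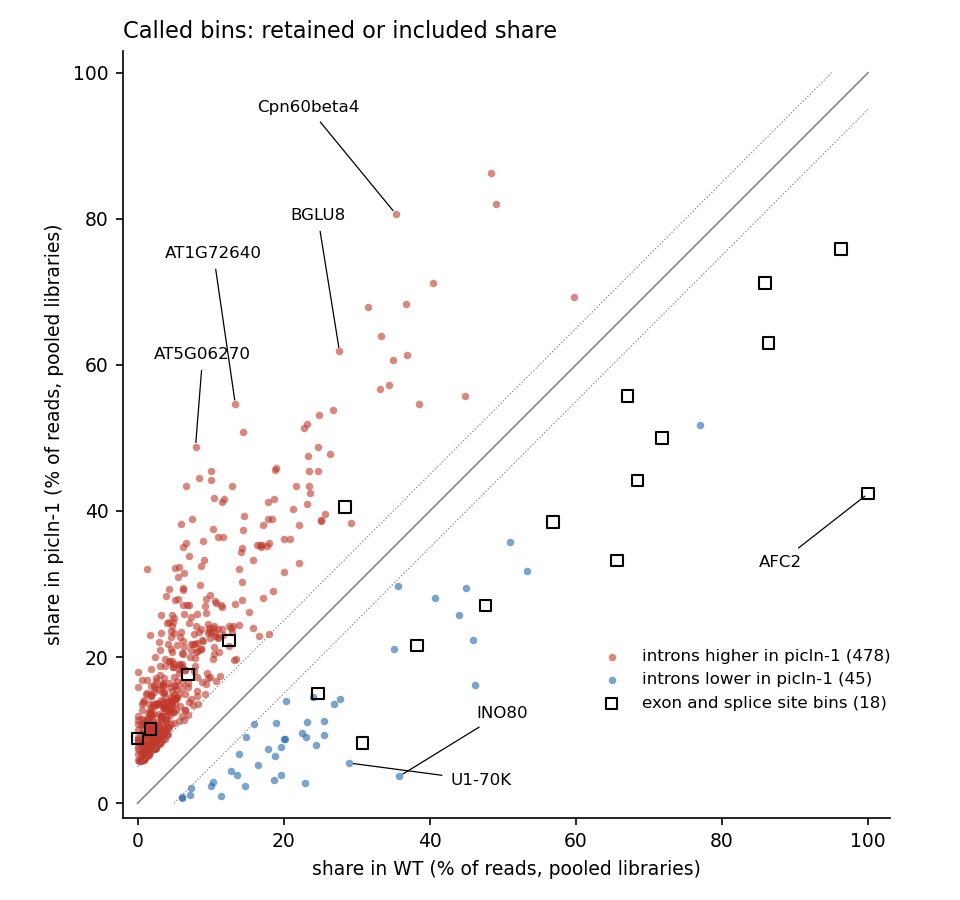
Each called bin is placed by the authors' pooled share of reads that retain or include it in WT (x axis, %) and in picln-1 (y axis, %). The solid line marks equal shares and the dotted lines the limit of 5 percentage points, red points are 478 rising introns, blue points 45 falling introns and squares 18 bins that are not introns. The rising introns crowd at low WT shares, and the falling introns are spread over WT shares from 6.08% to 77.0%.

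The deepest rises left introns in a large part of the reads. The ninth intron of Cpn60beta4, a minor subunit of the plastid chaperonin, went from 35.3% to 80.7% in the authors' deposited table, and the second intron of AT1G72640, a Rossmann-fold protein gene, from 13.4% to 54.6%. An intron in the 3′ untranslated region (UTR) of AT1G58602, an NB-ARC resistance gene, went from 48.4% to 86.3%, and the single intron of AT5G06270, in the 5′ UTR, from 7.94% to 48.8%, per the authors' deposited table. SUO, which acts in translational repression by microRNAs, went from 14.5% to 50.8%, and the SIT4 phosphatase-associated gene AT3G45190 from 8.47% to 44.5% in the authors' deposited table. Rises as large as these were the minority. Of 478 rising introns 262 (54.8%) rose by over 10 percentage points, 77 (16.1%) by over 20 and 20 (4.18%) by over 30. At the other end, 14 introns were listed at 0% in WT. Per the authors' deposited table these reached 16% in the squalene monooxygenase gene SQE6, 12% in the beta-amylase gene BAM2 and 6.71% in SULTR4;2.

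Several genes were hit at many introns. BGLU8, a beta glucosidase gene, had 7 of its 12 introns called, all higher, with picln-1 shares from 7.74% to 61.8% in the authors' deposited table. The related BGLU5, BGLU6 and BGLU9 each had 1 called intron, which went from 49.0% to 82.0%, from 3.23% to 25.8% and from 11.5% to 23.9%, per the authors' deposited table. Cpn60beta4, ORG1 and DFD, a folylpolyglutamate synthetase homolog, had 4 called introns each, all higher. In Cpn60beta4 these were 4 consecutive introns, 7 to 10 of 12. Of the 50 genes with at least 2 called bins, 40 had them all higher, 1 all lower and 9 both ways.

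Rising introns fell in genes of many cell functions. Genes are grouped below as examples chosen after the values had been seen, and since 478 of 523 called introns rose, a group with rising introns alone does not stand out. Among plastid proteins both directions were called, with falling introns in LDA, MEE32, GLT1 and EMB3103, whose values are given further on. Cpn60beta4, which helps to fold a subunit of the chloroplast NDH complex, PnsL1 and PnsL4, both lumenal subunits of that complex, had rising introns, and the first intron of PnsL4 went from 7.04% to 13.8%, per the authors' deposited table. Tetrapyrrole genes were represented in the authors' deposited table by CHLM of chlorophyll synthesis (25.1% to 38.6%) and the haem oxygenase gene HO2 of phytochrome chromophore synthesis (8.05% to 24.3%). Plastid gene expression was represented by the sigma factor gene SIG4 (5.73% to 11.3%), the ribosome recycling factor gene RRF (3.85% to 11.3%) and the peptide deformylase gene PDF1B (1.42% to 10.6%) in the authors' deposited table. Stromal carbonic anhydrase CA1 went from 6.94% to 15.9%, per the authors' deposited table.

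In amino acid and folate synthesis introns were called in both directions. AK3, an aspartate kinase gene at the entry to lysine, threonine and methionine synthesis, had 3 rising introns, the highest at 4.3% in WT and 29.3% in the mutant, per the authors' deposited table. The folate genes DFD and DFC had introns that went from 8.20% to 25.9% and from 24.7% to 48.8%, per the authors' deposited table. Falling introns were in MEE32 of the shikimate pathway, from 6.09% to 0.797%, and in the glutamate synthase gene GLT1, from 14.8% to 9.09% in the authors' deposited table. Another intron of GLT1 rose from 2.69% to 7.99%, per the authors' deposited table. In N-glycan assembly the mannosyltransferase genes ALG3 and ALG12 and the transferase gene CGL1 held 4 rising introns, among them an ALG3 intron that went from 6.67% to 35.7% in the authors' deposited table.

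Of 150 intron-bearing genes in a family of RNA polymerase subunits and general transcription factors, formed after the values had been seen, 10 had a called bin (6.67%, beside 1.95% of all loci with an intron), each a rising intron. They include the largest subunit of RNA polymerase II, NRPB1 (5.71% to 18.3%), the general factors TFIIB (3.96% to 12.6%) and TBP1 (9.91% to 22.6%), the elongation factor IWS1 (0.221% to 5.76%) and the Mediator subunit MED19A (2.53% to 7.62%), per the authors' deposited table. NRPD4, shared by the plant-specific polymerases IV and V, went from 1.41% to 10.9%, and AT3G49000, of the RNA polymerase III subunit RPC82 family, from 3.36% to 15.3% in the authors' deposited table. Of 81 intron-bearing genes of a chromatin family formed from product names 6 had a called bin (7.41%, beside 1.95%), each a rising intron. They are PKL, BET9, BET10, SDG40, AT1G76380 and AT3G55080. The remodeller ATPase genes SYD and INO80 are not among them, so that share is not one of remodellers. In a list of 35 genes for DNA methylation and chromatin 1, INO80, had a called bin, a falling intron. SYD and ATX2 are further examples. The SWI/SNF ATPase gene SYD went from 7.41% to 38.9% in the authors' deposited table, the bromodomain gene BET9 from 14.6% to 39.3%, the CHD3 remodeller gene PKL from 2.1% to 9.90% and the trithorax-like gene ATX2 from 3.57% to 10.3%. The intron of INO80, another remodeller ATPase gene, went from 35.8% to 3.70%, the deepest fall of any called intron, per the authors' deposited table. PRMT4A, a protein arginine methyltransferase gene of another type than PRMT5, had an intron that rose from 1.82% to 7.91% in the authors' deposited table.

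Of 712 intron-bearing genes with a kinase product 23 had a called bin (3.23%, beside 1.95%), and rising introns (21 genes) outnumbered falling ones (2 genes) about as among all called introns, of which 91.4% rose. SnRK2 kinases transmit abscisic acid and osmotic stress signals, and 4 of 9 members had a called bin, a family singled out after its values had been seen. Introns of SNRK2.3, SNRK2.4 and SNRK2.10 went from 3.49% to 16.2%, from 3.64% to 10.5% and from 3.09% to 9.53% in the authors' deposited table. At SNRK2.2 a part of 21 bases at an alternative donor site went from 0% to 8.89%, per the authors' deposited table. The abscisic acid phosphatase gene HAB2 went from 18% to 23.2% in the authors' deposited table. None of the 5 was listed for a change of expression. With 1.69% of all genes tested listed, a group of this size would hold few or none at that share, and smaller changes would not be seen.

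The NLR family, intracellular receptors of pathogen effectors, had 5 of 145 intron-bearing members with a called bin (3.45%, beside 1.95% of all loci with an intron), such as AT5G46510 (10.1% to 44.3%), per the authors' deposited table. AT1G58807 and AT1G59124 of that family carry equal values and count as 1 measurement, which leaves 4 and brings the share closer to that of all loci. Of 296 intron-bearing receptor-like kinases 4 had a called bin (1.35%). RCD1, a hub that binds stress transcription factors, went from 26.7% to 53.8%, MLO10 from 5.15% to 32.3% and the calcium-dependent kinase gene CPK28, which dampens immune signalling, from 2.44% to 13.4% in the authors' deposited table.

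Of 70 intron-bearing homeobox genes 4 had a called bin (5.71%, beside 1.95%), each a rising intron: ANL2, KNAT5, HAT1 and HAT2. Homeodomain genes with rising introns, PDF2 and BLH3 included, were ANL2 and PDF2 of the epidermis (0.763% to 10.1% and 4.19% to 12.8%), HAT1 and HAT2 (16.8% to 35.3% and 5.21% to 14.4%), KNAT5 (8.20% to 17.3%) and BLH3 (4.35% to 19.5%), per the authors' deposited table. SPL7, the regulator of the copper response, went from 5.43% to 21.6% and SPL9, which promotes the adult phase, from 8.64% to 23.9% in the authors' deposited table. FLK, which promotes flowering and lowers FLC, had a 5′ UTR intron that went from 24.8% to 53.1%, per the authors' deposited table. Iron regulation was represented in the authors' deposited table by PYE (3.2% to 11.5%), the transporter gene OPT3 (2.70% to 8.35%) and BHLH101 (3.70% to 8.76%). Of 25 clock genes with an intron 5 had a called bin (20%, beside 1.95%), 4 with a rising and 1 with a falling intron, and the light genes FHY3, CIP1 and PHOT2 had rising introns, with CIP1 going from 5.75% to 22.8% in the authors' deposited table.

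Of 29 SR and hnRNP-like genes 6 had a called bin (20.7%, beside 1.95%), with 4 falling introns, no rising intron and an exon part each lower in SR30 and higher in RS2Z33. Among all 523 called introns 45 fell. Of 264 intron-bearing RNA-binding protein genes 8 had a called bin (3.03%), 6 with a rising and 2 with a falling intron, and of 71 RNA helicases 3 (4.23%), all with a rising one. Other splicing and mRNA export genes, named after their values had been seen, had bins in both directions. Lower retention was seen in the large U2AF subunit gene AT1G60900 (53.3% to 31.8%), the spliceosome protein-like gene AT1G54380 (35.1% to 21.2%), the arginine/glutamate-rich gene AT1G10890 (77.0% to 51.8%) and the RNA export adapter-like gene AT3G20430 (14.7% to 2.41%), per the authors' deposited table. The SR protein genes SCL33 and RS40 went from 51.0% to 35.8% and from 26.9% to 13.6%, and an alternative 3′ part of SR30 from 56.9% to 38.5% in the authors' deposited table. An exon of PRP39, a U1 snRNP-associated protein gene, was included in 30.8% of reads in WT and 8.26% in picln-1, per the authors' deposited table. Higher retention was seen in the authors' deposited table in SUA, which acts in splicing of seed transcripts (36.8% to 61.4%), in the SWAP domain gene AT5G55100 (18.9% to 45.9%) and in UAP56a and UAP56b, near-identical helicases of mRNA export (11.3% to 17.5% and 9.43% to 16.3%). AFC2, a kinase that phosphorylates SR proteins, had 2 rising introns (13% to 43.4% and 6.29% to 29.5%) and an exon part that went from 100% to 42.4%, the largest change of any called bin, per the authors' deposited table. That exon part lies directly next to the fifth intron, which is the first of the rising introns given.

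**Figure D3:**
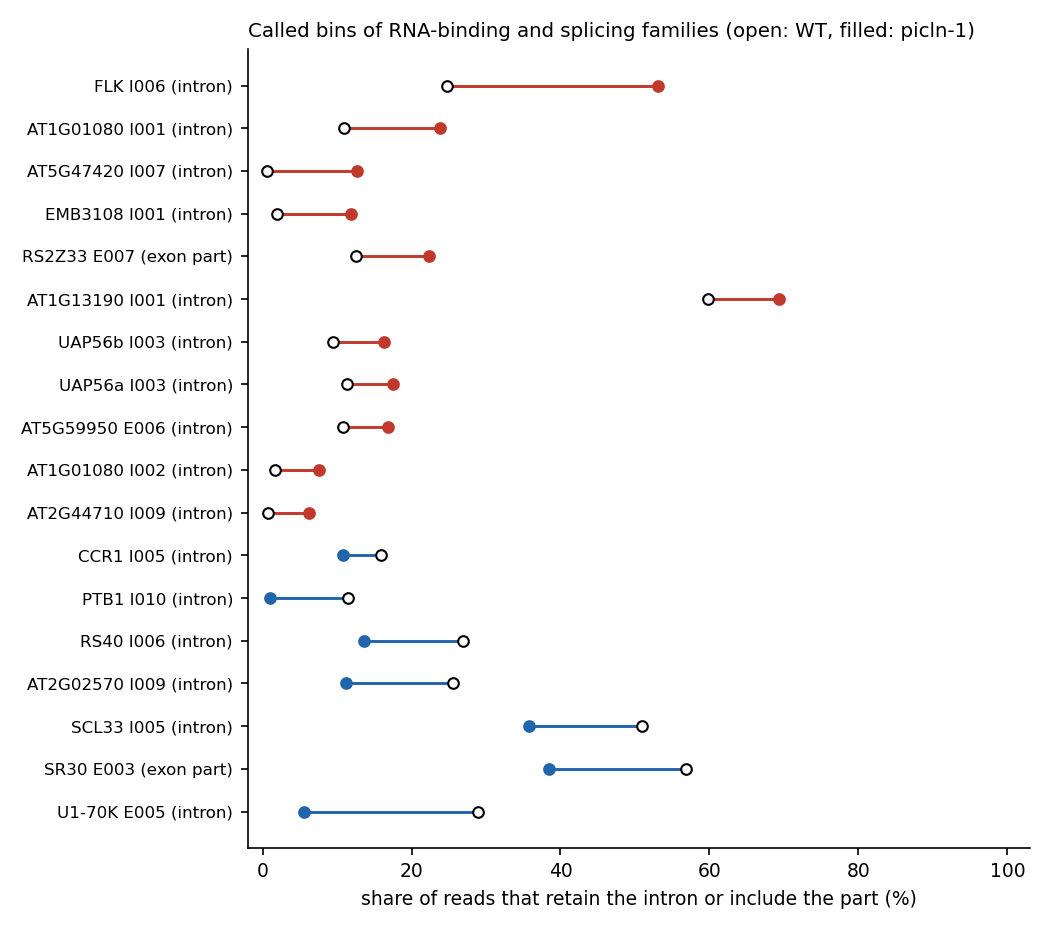
Each line joins the authors' pooled share of a called bin in WT (open circle) to that in picln-1 (filled circle), as % of reads on the x axis, red for a rise and blue for a fall, for every called bin of the snRNP, SR and hnRNP-like lists and of the RNA-binding protein and RNA helicase families. Of 18 bins in 17 genes 11 rose, with FLK at the top going from 24.8% to 53.1%, and 7 fell, with U1-70K at the bottom going from 29.0% to 5.50%.

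Introns of poly(A) machinery genes were called in both directions. PAPS2 and nPAP, paralogous nuclear poly(A) polymerases, went in opposite directions in the authors' deposited table, from 18.9% to 11.0% and from 3.83% to 9.45%. ESP4, a HEAT repeat protein gene of 3′ end formation, had introns that went from 33.3% to 63.9% and from 16.7% to 22.9%, and CPSF160 had one that rose from 2.44% by 17.56 percentage points in the authors' deposited table.

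Other falling introns were in genes of varied function. AT1G63420, an O-glucosyltransferase-like gene, went from 46.2% to 16.2% in the authors' deposited table, the carboxypeptidase gene AT5G22860 from 22.9% to 2.78% and EMB3103, a pentatricopeptide repeat gene, from 24.4% to 7.91%. LDA had one intron that fell from 25.6% to 9.30% and another that rose from 1.38% to 9.65%, per the authors' deposited table. For the fifth intron of RAP2.7, an AP2-type repressor of flowering, the retained share fell from 44.0% to 25.8% whereas the log2 usage change of the bin was 1.37 in the authors' deposited table. It is the only called bin in which both measures have opposite signs.

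Bins that are not introns numbered 18, 13 lower and 5 higher: 6 skipped exons, 5 parts at an alternative donor site, 3 at an alternative acceptor site, and 4 plain exon bins. Per the authors' deposited table, an exon of XBAT35, a ubiquitin ligase gene, was included in 65.7% of reads in WT and 33.2% in picln-1. DYL1, a dormancy-associated gene, lost usage at a neighbouring pair of bins, from 68.4% to 44.2% and from 47.7% to 27.1%, per the authors' deposited table. The auxin response factor gene ARF1 lost usage of an alternative part of 9 bases, which fell by 21.8 percentage points from 71.8%, and of one of 6 bases, from 85.9% to 71.2%, while its first intron rose from 0% to 8.77% in the authors' deposited table. The vacuole protein gene AT4G33625, the pentatricopeptide repeat gene AT3G59300, AT4G34265, the noncoding locus AT1G25175 and the ubiquitin conjugation gene UEV1D-4 had changes from -23.4 to -9.64 percentage points in the authors' deposited table. Gains were at WLIM2b, which rose from 6.92% by 10.7 percentage points, and the BTB/POZ domain gene AT2G30600 (28.4% to 40.5%), per the authors' deposited table. The remaining gains were at RS2Z33, an SR protein gene (12.5% to 22.3%), and RAP2.7 (1.79% to 10.1%) in the authors' deposited table.

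The called introns were then set beside the annotation, which the authors' limits did not use. Of the called introns 522 of 523 (99.8%) had the borders of an annotated intron. Rising introns were short, with a median of 89 bases and 63.7% under 100 bases, beside a median of 101 and 48.7% for the 3650 uncalled introns of the same genes. Falling introns were long, with a median of 289 bases and 57.8% over 200 bases, beside 104 and 21.6% for the 402 uncalled introns of their genes. Over all 136297 annotated introns the median was 102 bases. These are descriptions without a test, since introns of 1 gene share their transcripts and a call needs enough reads.

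**Figure D4:**
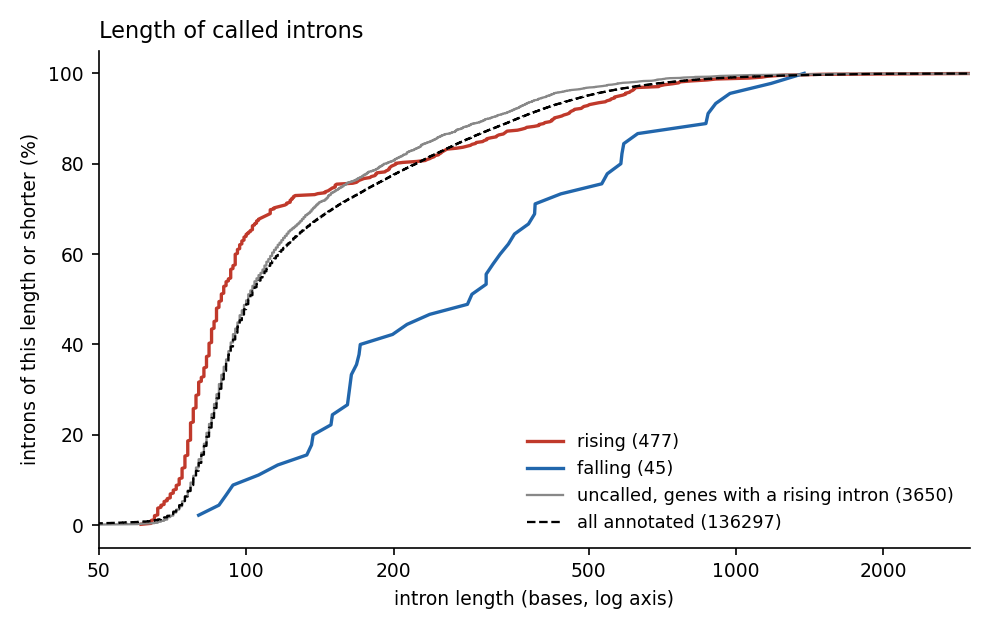
The share of introns (y axis, %) at or below each length (x axis, bases, log scale) is drawn for 477 rising introns (red), 45 falling introns (blue), 3650 uncalled introns of genes with a rising intron (grey) and all 136297 annotated introns (dashed). At 100 bases the red line has passed 63.7% and the grey line 48.7%, whereas the blue line is at 8.89%.

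The 5′ splice sites differed in the same descriptive sense. A score in bits, which sums how well 3 exon and 6 intron bases match annotated introns, had a median of 6.51 for rising introns, 6.96 for the uncalled introns of their genes and 7.66 for falling introns. At the 3′ splice site the medians were 7.31, 7.66 and 7.82. G at the last exon base, which pairs with U1 small nuclear RNA, was present in 71.9% of rising introns, 78.0% of uncalled introns of the same genes and 75.6% of falling ones, and G at the fifth intron base in 51.2%, 50.1% and 48.9%. The letters printed above show how far single introns depart from these medians: PnsL1 intron 7 scored 4.70 and Cpn60beta4 intron 9, the one with the largest rise, 9.61. The median GC content was 34.8% for rising, 33.8% for falling and 33.5% for uncalled introns of genes with a rising one.

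Most called introns interrupt coding sequence. Of the rising introns 83.0% lay there, 9.01% in a 5′ UTR and 7.55% in a 3′ UTR, beside 91.3%, 5.73% and 2.82% of the uncalled introns of their genes. Of the falling introns 93.3% were in coding sequence and 0 in a 5′ UTR. When kept in the transcript, 88.1% of the rising coding introns hold an in-frame stop, as do 97.6% of the falling ones and 88.8% of the uncalled ones. Of the rising coding introns 8 (2.02%) hold no stop and also keep the reading frame, beside 3.06% of the uncalled ones and 3.41% of all annotated ones. In transcripts with at least 2 introns 17.9% of rising introns were the first and 17.5% the last, where 15.5% would be so if each intron counted alike. For the falling ones the shares were 4.55% and 15.9% beside 15.7%.

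The list of changed expression and the list of changed bins had 12 genes in common, 4.3% of the listed genes and 2.55% of the genes with a called bin. Beside these stand the 1.95% of intron-bearing loci with a called bin and the 1.69% of tested genes listed, and whether the overlap departs from them was not tested. In the 4 genes with higher expression, SULTR4;2, BHLH101, AT1G31870 and the transporter gene UMAMIT47, introns were retained more and none less. Of the 8 with lower expression, 5 had introns retained more, U1-70K and SPP2 had an intron retained less, and LDA had both. In the authors' deposited table the reticulon gene AT3G10260 had a log2 change of -0.63 with retention going from 9.34% to 27.9%, and the manganese transporter gene MTP11 one of -0.63 with 3.33% going to 13.8%. The carboxypeptidase gene SCPL13 had one of -0.89 with 15.8% going to 24% in the authors' deposited table. SPP2 had a log2 change of -0.63 while retention went from 45.0% to 29.4%, per the authors' deposited table. AT1G31870 had one of 0.68 with retention going from 2.70% to 13.6% in the authors' deposited table. The other genes with a called bin were not on the expression list. Its smallest change was 0.58 on the log2 scale, so smaller changes of those genes would not be seen.

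**Figure D5:**
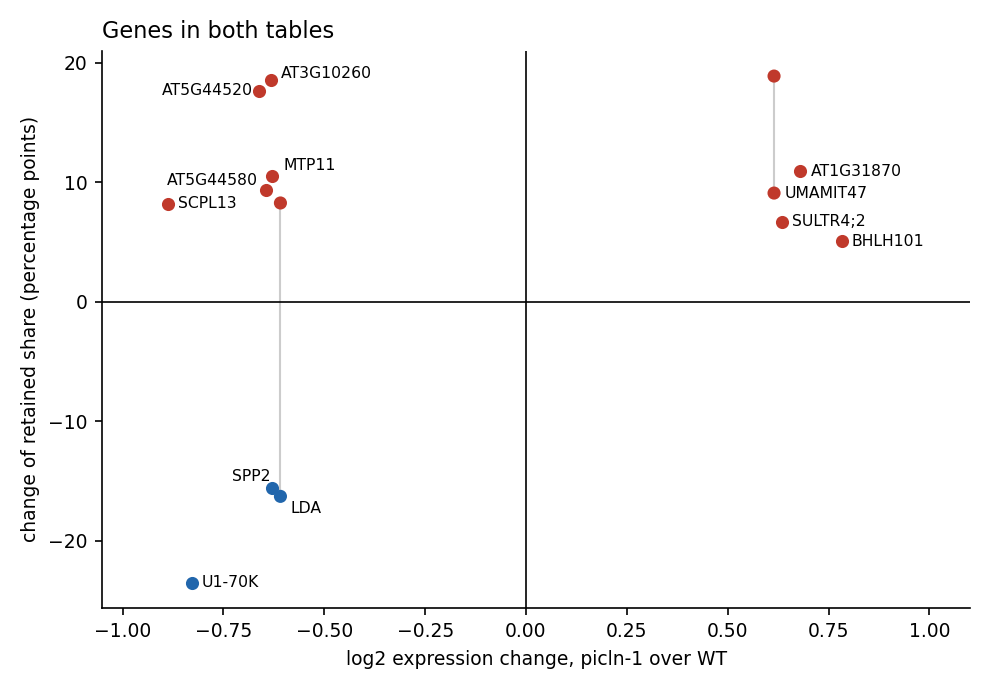
The 12 genes listed for expression and for a bin are placed by the authors' log2 expression change of picln-1 over WT (x axis) and by the change of the share of each called bin in percentage points (y axis), red for higher and blue for lower retention, with bins of the same gene joined by a grey line. The 4 genes right of 0 have rising introns only, and blue points appear only at U1-70K, SPP2 and LDA, left of 0.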

How the data were processed

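RNA of 4 picln-1 and 4 WT libraries was compared by the authors, and their deposited tables were used as they stand. The authors gave each gene's expression change and each bin's usage change as a log2 ratio, positive where the mutant is higher. No header gives the base, and base 2 was taken because the smallest listed change, 0.58, then equals 1.50-fold. Raw p-value and adjusted p-value columns were deposited too and were not recomputed. The share of each bin is a fraction that the authors deposited per genotype, pooled over its libraries, and was multiplied by 100. Per the deposited description, genes were listed at an adjusted p under 0.05 and bins at an adjusted p under 0.15 with a share change above 0.05. The listed genes reached rank 2145 by raw p, so far more genes passed that adjusted p than the 279 listed. No listed gene changed by clearly less than 1.50-fold, so a limit on the size of change appears to have been applied as well. TopHat and TAIR10 are named in the submitters' processing notes. The counting program, its strand setting and the test are not given in the sources used here, and depth is unknown. Cold treatment is mentioned in the design line but on no library's label, and the labels were followed. The labels do not state whether the 4 libraries per genotype are separate cultures. If they are not, the authors' p-values reflect technical spread.

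How many features the authors tested was worked out from how adjusted and raw p relate at each rank, a step tested on simulated data. Names, borders and sequences came from RefSeq's annotation of TAIR10.1, in which 278 of 279 listed loci (all but a plastid gene) and all 470 loci with a bin were found. Intron numbers refer to the first annotated transcript with that intron. Of the 536 symbols in 18 gene lists 495 were matched, and 57 families were formed from product names. Splice sites were scored with a position weight matrix of annotated introns. No test was made, since each genotype has a single pooled value. Named genes are pICln, listed members of lists and families, genes in both tables, the introns with the largest changes or smallest adjusted p, all other bins and genes with several bins. The members and lists were chosen with earlier results of these data known, and 12 further families, and the other genes named as examples, after the values were seen. Python 3.11.15, numpy 2.4.6, pandas 2.3.3 and matplotlib 3.10.9 were used.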

Additional observations from a re-analysis of the deposited data

How the results depend on the processing

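The tables list only what passed the authors' limits, so stricter limits could be tried but looser ones could not, and genes that changed by less cannot be seen. Under 41 of the alternatives the value stayed close to that reported (for counts, within 1.5 times), and under 17 it moved. A direction could reverse only for the differences of median intron length and of median 5′ splice site score, and it did not. Counts and the other values have no direction to reverse. A log2 change of at least 1 left 76 genes, 31 higher and 45 lower. Without loci that overlap another annotated gene, 107 lower genes remained of 164. At an adjusted p under 0.01 there were 279 bins (252 higher, 27 lower), 269 introns (249 higher, 20 lower) and 7 genes in both tables. With a share change above 0.1 there were 306 bins (264 higher) and 292 introns (262 higher). With a WT share above 0.1 there were 146 introns, 105 of them higher. Counting copies with equal values once, an alternative chosen after seeing the data, gave 277 genes and 539 bins. No paired analysis was possible because the tables hold no values per library, and leaving out each replicate in turn was not run for the same reason. Shares rest on an unknown number of reads, so an intron listed at 0% may be retained at a share too low to be read.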
